A study of Mus musculus with 6 samples.

Results

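The 6 long noncoding RNAs described here were Malat1 (ENSMUSG00000092341), Neat1 (ENSMUSG00000092274), Kcnq1ot1 (ENSMUSG00000101609), Tug1 (ENSMUSG00000056579), Gas5 (ENSMUSG00000053332) and Miat (ENSMUSG00000097767). They were chosen by name through their Ensembl identifiers and not by their values, and all 6 were found among the 48505 genes of the series. Their 5742 windows, of 5193362 in all, are short consecutive stretches of a gene, most starting 25 nucleotides (nt) apart. A window is named below by its start, counted from the first window of its gene. The files do not say whether that count begins at the 5′ or the 3′ end of the RNA, so positions are offsets only.

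The data were 6 libraries of RNA fragments pulled down with a polyclonal antibody against N6-methyladenosine (m6A), made from fetal hearts of the wild-type mouse strain FVB/NJ. In the sham group (n = 3) the dams, aged 10 weeks, breathed filtered air, and in the nano-TiO2 group (n = 3) they breathed an aerosol of engineered titanium dioxide nanoparticles at a target of 12 mg/m3. Exposure lasted 360 minutes on each of 6 days spread over 8 days from gestational day 5, and hearts were taken on gestational day 15. Each library came from a pool of hearts of male and female fetuses, and how litters were shared out is not given, so p-values measure only the spread between these 6 pools. Heart markers could not be checked, because the files give no gene symbols. The question was how pull-down signal on these RNAs, and its place along them, differed between the groups.

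m6A is a methyl group that a complex of enzymes writes onto adenosines of many RNAs and that reader proteins recognise. Long noncoding RNAs are transcripts without a protein product that act as RNA, and several carry well-known m6A sites, Malat1 among them. Malat1 is an abundant nuclear RNA that gathers at nuclear speckles, where splicing factors are stored. Neat1, its neighbour on chromosome 19, is the scaffold of paraspeckles. Miat, on chromosome 5, was named for its association with myocardial infarction and is also found in a nuclear domain. Kcnq1ot1, on chromosome 7, is an imprinted RNA transcribed from the paternal allele, antisense to the cardiac potassium channel gene Kcnq1, and it silences neighbouring genes in cis. Tug1, on chromosome 11, was first described as a taurine-upregulated RNA. Gas5, on chromosome 1, is a spliced host gene that carries small nucleolar RNAs (snoRNAs) in its introns.

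For Malat1 and Tug1, which rose in nano-TiO2, and for Kcnq1ot1, whose reads are described by position below, the RefSeq windows around the start site are shown to place them in the genome (build GRCm38.p6). All 3 lie on the minus strand and run 5′ to 3′ from 250 bases before the start to 50 after it. Capitals mark the 50 bases from the start site on, the beginning of the RNA. The Malat1 window is chr19:5802623-5802922, that of Tug1 is chr11:3648765-3649064 and that of Kcnq1ot1 is chr7:143296498-143296797.
Malat1: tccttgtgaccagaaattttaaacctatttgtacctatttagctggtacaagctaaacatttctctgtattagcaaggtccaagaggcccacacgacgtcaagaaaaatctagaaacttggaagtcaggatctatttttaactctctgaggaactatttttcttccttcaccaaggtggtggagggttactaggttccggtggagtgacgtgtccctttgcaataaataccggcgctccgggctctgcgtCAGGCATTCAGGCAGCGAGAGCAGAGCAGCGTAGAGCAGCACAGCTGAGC
Tug1: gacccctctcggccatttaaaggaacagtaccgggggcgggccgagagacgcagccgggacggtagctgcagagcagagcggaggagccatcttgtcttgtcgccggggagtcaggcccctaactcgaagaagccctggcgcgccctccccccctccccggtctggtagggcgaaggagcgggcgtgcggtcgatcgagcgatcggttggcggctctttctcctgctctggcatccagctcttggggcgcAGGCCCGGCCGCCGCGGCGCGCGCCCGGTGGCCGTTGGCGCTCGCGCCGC
Kcnq1ot1: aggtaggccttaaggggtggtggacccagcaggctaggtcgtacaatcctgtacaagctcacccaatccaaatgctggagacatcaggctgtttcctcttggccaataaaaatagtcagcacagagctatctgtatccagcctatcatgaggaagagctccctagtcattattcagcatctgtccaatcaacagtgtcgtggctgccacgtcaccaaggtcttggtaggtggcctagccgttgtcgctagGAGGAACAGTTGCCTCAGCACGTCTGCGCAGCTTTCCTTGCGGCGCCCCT
The Tug1 window was the richest in G and C, at 71.3% of bases, against 53.3% for Kcnq1ot1 and 47% for Malat1. CCAAT occurred 3 times in the Kcnq1ot1 window, on either strand, and in neither of the others; 37.4% of 32851 RefSeq windows of this length hold it. GGGCGG occurred once in the Tug1 window and not in the other 2, against 35.7% of all windows. TATAAA, held by 13.6% of windows, occurred in none of the 3. Motifs of the m6A type were searched on the transcribed strand in the 50 capital bases. GGACT, found there in 5.76% of all windows, was absent from the 3. The variant GGACA, found in 5.40%, and the variant AGACT, found in 5.14%, were absent as well. These matches describe letters and not binding or methylation.

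The libraries held 20205024 to 31523675 reads, and the 6 RNAs took few of them. With reads scaled to equal library totals (RPM), they together held 386, 483 and 578 RPM in sham, listed here and below from replicate 1 to 3, against 1920, 1465 and 1548 in nano-TiO2. The groups did not overlap, and the exact two-sided permutation p was 0.1, the smallest that 3 against 3 allow. Malat1 made up 74.8% to 91.3% of these reads. Over all libraries Malat1 had 136987 reads, Gas5 8333, Kcnq1ot1 7403 and Tug1 4564, whereas Neat1 had 365 and Miat 24, so the last pair was measured far less precisely. Per 100 windows, the order of the sham means of normalized signal was Malat1 (4318 ± 1257), Gas5 (1028 ± 17.0), Tug1 (80.1 ± 9.6), Kcnq1ot1 (26.2 ± 5.9), Neat1 (3.09 ± 1.4) and Miat (1.05 ± 0.43; SD, n = 3 each). In nano-TiO2 hearts the order was the same, with means of 11487 ± 2616, 806 ± 33.8, 287 ± 33.0, 37.9 ± 7.1, 10.5 ± 2.1 and 0.963 ± 1.3. Neighbours in this order did not overlap over the 3 pools of a group, except Neat1 and Miat in sham.

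In nano-TiO2 hearts 3 of the 6 RNAs, Malat1, Neat1 and Tug1, rose in IP level, the normalized signal summed over the windows of a gene. Kcnq1ot1 and Gas5 did not pass the test, and Miat was too low to be tested. Of 18566 genes with a mean of at least 10, 36% were called at an adjusted p under 0.05 (limma with Benjamini-Hochberg adjustment over all genes), 24% as higher and 12% as lower. Of the 5 RNAs tested, 3 were called, all higher. Their median log2 change was 1.43, and that of all genes tested was 0.13. Pull-down signal alone does not separate the amount of an RNA from its m6A, and input reads were not used here. In these bulk hearts, a change in cells of a type and a change in RNA per cell cannot be told apart either.

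**Figure D1:**
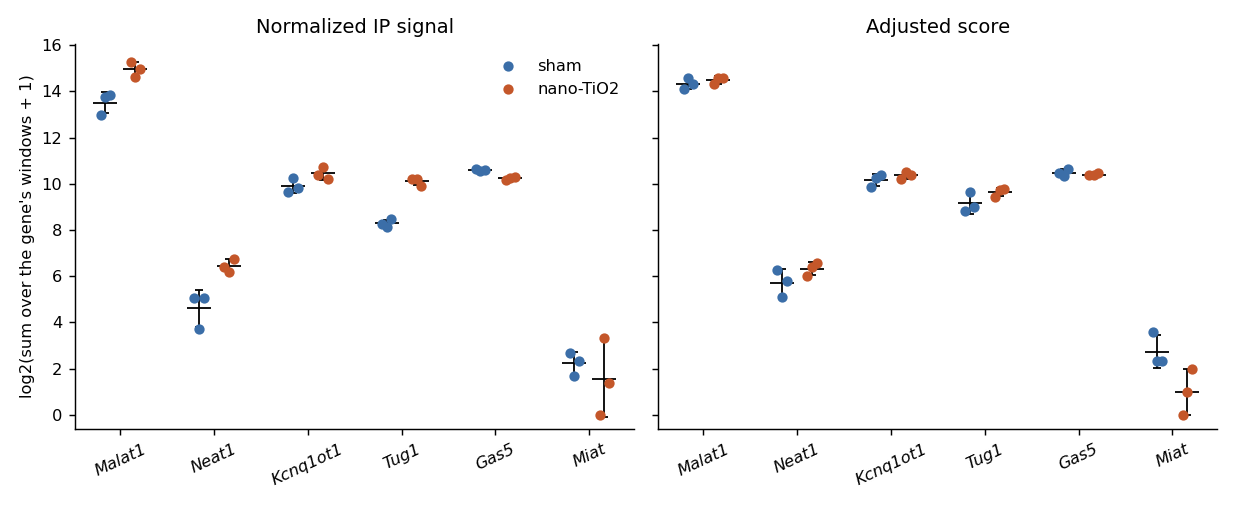
Level of each RNA in each library, as log2 of the sum over its windows + 1, for the deposited normalized signal (left) and the deposited adjusted score (right); points are libraries, bars mean ± SD of 3. On the left the groups are apart in Malat1, Neat1 and Tug1 (higher in nano-TiO2) and in Gas5 (lower), while on the right the groups of these 4 RNAs overlap.

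Malat1, the speckle RNA, had 8022, 13654 and 14463 normalized reads in the sham pools against 39507, 24920 and 31717 in the nano-TiO2 pools. Every nano-TiO2 pool exceeded every sham pool, and sham replicate 1 was the lowest. The means were 12046 ± 3508 and 32048 ± 7299 (SD, n = 3), a ratio of 2.66. The log2 change was 1.43 (SE 0.25, adjusted p = 0.0033, limma), larger than in 94.3% of genes tested. Leaving out each pool in turn gave log2 changes of 1.16 to 1.60, with adjusted p of 0.0038 to 0.015.

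Neat1, the paraspeckle scaffold, was low: 32.4, 12.0 and 32.4 normalized reads in sham against 83.7, 72.0 and 106 in nano-TiO2 pools. These values rest on 36, 11 and 24 reads in sham against 75, 87 and 132 in nano-TiO2, and the groups did not overlap. Its log2 change was 1.84 (SE 0.39, adjusted p = 0.0071, limma), with adjusted p of 0.0092 to 0.034 when each pool was left out. The 2 neighbours on chromosome 19 thus both rose. The call for Neat1 was lost when the trend with windows per gene, described below, was removed from each library (log2 change 1.04, adjusted p = 0.11, limma).

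Tug1 had 303, 279 and 353 normalized reads in sham against 1190, 1193 and 969 in nano-TiO2 pools. The lowest nano-TiO2 pool was far above the highest sham pool, and the spread within groups was small, at 312 ± 37.5 and 1117 ± 129 (SD, n = 3). The ratio of means of 3.58 was the largest among the 5 RNAs tested. The log2 change was 1.84 (SE 0.16, adjusted p = 5.4e-04, limma), larger than in 98.6% of genes tested.

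Kcnq1ot1, the imprinted antisense RNA, had 792, 1220 and 914 normalized reads in sham against 1350, 1699 and 1183 in nano-TiO2 pools. The groups overlapped, since sham replicate 2 exceeded nano-TiO2 replicate 3. Its log2 change was 0.54 (SE 0.20, 95% confidence interval 0.08 to 1.00) and did not pass the test (adjusted p = 0.066, limma). With equal library totals it passed (log2 change 1.04, adjusted p = 0.0020, limma), as it did without sham replicate 2 (0.71, adjusted p = 0.032, limma), and it passed as lower, at -0.88 (adjusted p = 0.0068, limma), when the trend with windows per gene was removed.

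Gas5, the snoRNA host, was the 1 RNA of those tested with a lower mean in nano-TiO2 hearts. Its normalized reads were 1569, 1518 and 1539 in sham against 1150, 1233 and 1243 in nano-TiO2 pools, with no overlap; over all genes tested, 18.5% were lower with no overlap and 30.9% higher. The log2 change was -0.35 (SE 0.12) and missed the threshold (adjusted p = 0.054, limma), while edgeR (-0.40, adjusted p = 0.030) and DESeq2 (-0.49, adjusted p = 0.0034) on the recovered reads called it. The direction rested on the scaling: in RPM Gas5 was at 56.5, 44.0 and 51.4 in sham against 51.0, 62.0 and 54.6 in nano-TiO2, and with equal library totals its log2 change was 0.15 (adjusted p = 0.55, limma). Equal totals moved the median log2 change of all genes from 0.13 to 0.61, so that on both scales Gas5 lay below the median gene.

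Miat had 6, 2 and 3 reads in sham, against 0, 11 and 2 in nano-TiO2. A count of 0 allows up to 3 reads, or 3.35 normalized reads in that library. Both groups overlapped at this depth, and no fold is given.

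How far each RNA stood from genes of its own size was compared next, because the change between groups moved with the number of windows per gene. Among the 10 bands of genes by windows, the median log2 change ran from -0.64 in the band of 8 to 27 windows to 0.93 in the band of 359 or more. Malat1, with 279 windows, lay at 1.43 against a band median of 0.69 and an upper quartile of 1.13. Tug1 (389 windows) and Neat1 (830 windows) lay at 1.84 each against 0.93 and an upper quartile of 1.33. Kcnq1ot1, with 3723 windows, lay at 0.54, within the middle 50% of the same band (0.48 to 1.33). Gas5, with 150 windows, lay at -0.35 against a band median of 0.18 and a lower quartile of -0.19. With the trend with windows per gene removed, limma called Malat1 (1.08, adjusted p = 0.020) and Tug1 (1.35, adjusted p = 0.0043) as higher. It called Kcnq1ot1 (-0.88, adjusted p = 0.0068) and Gas5 (-0.45, adjusted p = 0.029) as lower, and it did not call Neat1 (1.04, adjusted p = 0.11). The trend removed was a straight line in log2 windows. In each library it was fitted over the 18566 genes tested, to the deviation of each gene from its mean over the 6 libraries. Kcnq1ot1 lies far out on that line, where the median of its band is 457 windows, so its value rests on the line holding there.

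**Figure D2:**
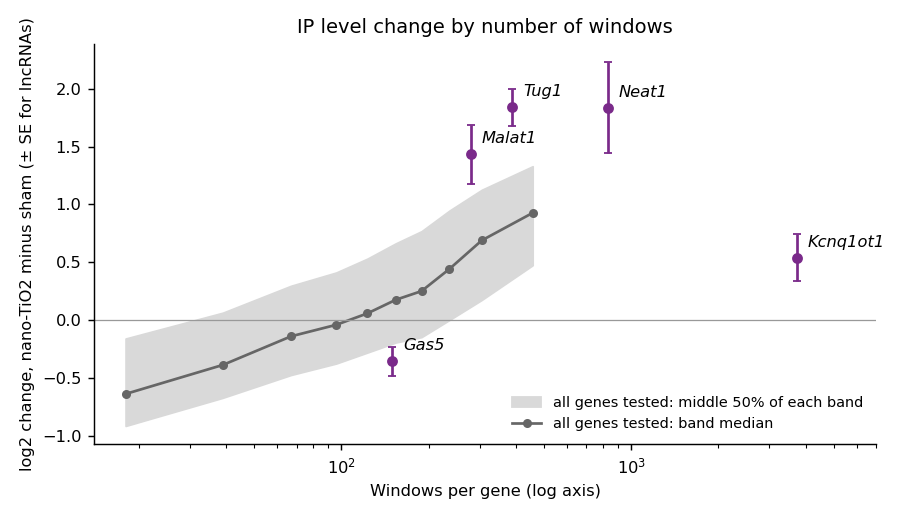
Log2 change in IP level (nano-TiO2 minus sham) against windows per gene on a log axis; purple points are the 5 tested RNAs with their SE, grey line and area the median and middle 50% of all tested genes in 10 bands. Malat1, Tug1 and Neat1 lie above the middle 50% of their bands, Gas5 below it, and Kcnq1ot1, whose 3723 windows lie far beyond the last band's median of 457, within it.

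The second deposited table, which its authors call adjusted, gave a different picture of the same RNAs. In that table each gene in each library was divided by 1 factor, whose basis is not stated, and each window was rounded to a whole number. For Malat1 the factor was 0.455, 0.559 and 0.720 in sham against 1.96, 1.01 and 1.29 in nano-TiO2 libraries, higher in the group where the normalized level was higher. The factors of the groups also lay apart for Tug1 (means 0.567 and 1.44), Neat1 (0.442 and 1.45), Kcnq1ot1 (0.797 and 1.22) and Gas5 (1.1 and 0.90, in the other direction). The share of all genes whose factors lie apart was not computed, so this is not shown to be particular to these RNAs. On the adjusted scale Malat1 stood at 17636, 24441 and 20109 in sham against 20189, 24572 and 24529 in nano-TiO2 pools, with overlapping groups.

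None of the 5 RNAs tested was called in the adjusted level, nor were any of the 19361 genes tested (0% by limma; 3592 genes at an unadjusted p under 0.05). The log2 change of Malat1 was 0.16 (95% confidence interval -0.10 to 0.42), close to the median of all genes, 0.17. That of Neat1 was 0.61 (-0.14 to 1.36), that of Kcnq1ot1 0.21 (-0.10 to 0.52) and that of Gas5 -0.06 (-0.30 to 0.17). Because each window was rounded before summing, sums over windows of few reads carry rounding. It moved the Kcnq1ot1 sum below what its factor alone gives in sham replicates 1 and 2, and above it in the other libraries. In Neat1 it raised the sums of all nano-TiO2 libraries. The direction for Kcnq1ot1 and the size for Neat1 are therefore uncertain, and unrounded sums were not tested. Miat, not tested, stood at 11, 4 and 4 in sham against 0, 1 and 3 in nano-TiO2, on 24 reads. Tug1 stood at 448, 796 and 508 in sham against 690, 839 and 872 in nano-TiO2 pools, where sham replicate 2 was well above the other sham pools. Its log2 change was 0.49 (0.05 to 0.93, adjusted p = 0.23, limma), and without sham replicate 2 it was 0.74 and called (adjusted p = 0.028, limma), as were 1878 of all genes.

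Signal on Malat1 was concentrated at 1 end. The stretches, blocks and runs described from here on, for each RNA, were set after its profile was seen and were not tested. The 30 windows with more than the RNA's mean window were its last 30, from offset 6234 on. They are 10.8% of its windows and held 91.8%, 93.3% and 93.4% of its reads in sham against 93.0%, 93.0% and 93.0% in nano-TiO2 libraries. The highest peak, a local maximum of the 5-window running mean, lay at offset 6859, and the next at 6359, 3634 and 2959. Before offset 2909 the mean window held 0.79 normalized reads, from there to the dense end 10.9, and in the dense end 684.

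Malat1 was higher in nano-TiO2 pools along its whole length. The ratio of nano-TiO2 to sham means was 2.48 before offset 2909, 2.68 in the middle stretch and 2.66 in the dense end, and the groups were apart in each. Of 87 Malat1 windows with a mean of at least 10, 58 were called as higher and none as lower, while 11.2% of 250317 windows were called in either direction and 3.88% as higher (limma). All 30 windows of the dense end were among the 58. The filter took the mean over both groups: 35 of the 87 windows, with 18 of the 58 calls, had a sham mean under 10 and were tested only through their higher nano-TiO2 values, so the count of calls is no support for the rise. Of the 52 windows with a mean of at least 10 in both groups, 40 were called. With single libraries left out the number called was 32 (nano-TiO2 replicate 1), 34 (nano-TiO2 replicate 3), 40 (sham replicate 1) or more. In the test of windows against the rest of their gene (limma's diffSplice), 0 of 87 Malat1 windows passed, with 0.0465% of 249423 windows called, 0.0373% as relatively higher and 0.00922% as relatively lower. On the adjusted scale 0 of its 85 tested windows was called (0.00316% of all windows, limma).

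**Figure D3:**
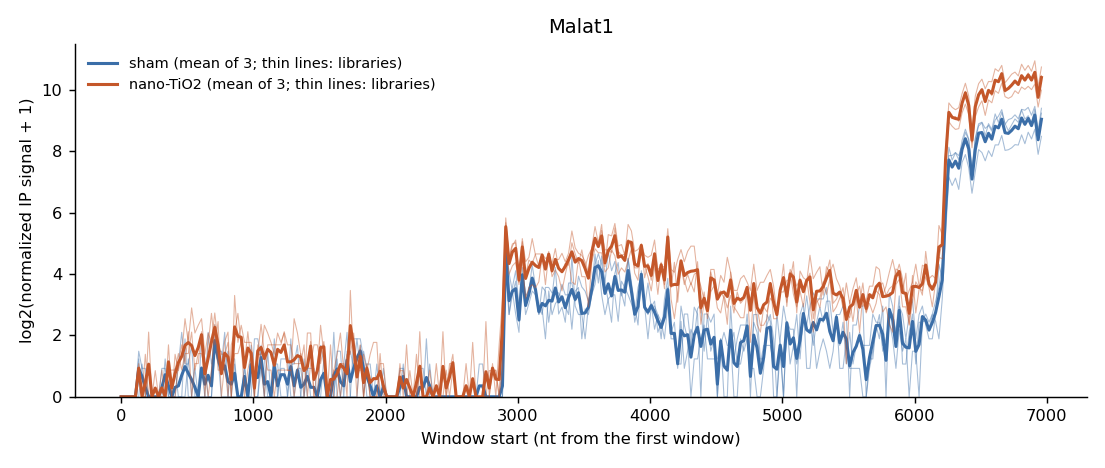
Normalized IP signal per window along Malat1, as log2(value + 1), against the window's offset in nt from the first window; thin lines are libraries, thick lines group means of 3. Signal steps up near offset 2909 and again near 6234. Summed over each of the 3 stretches, the nano-TiO2 mean is above the sham mean.

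A gene listed as ENSMUSG00000102349 followed Malat1 most closely over the 6 libraries (Pearson's r = 0.99996 of log2 levels, the highest of 18565 genes; 982 genes had r over 0.95). It held 46.6% to 48.2% as many reads as Malat1 in every library. Its 18 windows matched the Malat1 profile best in the same order from Malat1 offset 6625 on (r = 0.91 across windows, which are not independent). This is a description, and how the authors assigned reads that match both entries is not given. The level of the Malat1 end is therefore uncertain; the windows before the dense end had a ratio of 2.67. RefSeq also places Mascrna, a small RNA cut from the Malat1 transcript, within Malat1. For Neat1 the most similar gene was ENSMUSG00000110656 (r = 0.994), with 123 genes over 0.95.

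Neat1 reads were clustered as well, within the limits of 365 reads. Of its 830 windows 681 had no read in any library. Between offsets 17000 and 19000 lay 207 reads, or 56.7%, on 9.64% of the windows, and between 9000 and 12000 lay 68, or 18.6%. No stretch of Neat1 reached the height set for a peak. The last 25% of its windows held 63.9%, 90.9% and 87.5% of reads in sham against 86.7%, 65.5% and 77.3% in nano-TiO2 libraries, so the groups overlapped.

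Kcnq1ot1 showed the largest shift in where its reads lay. The last 25% of its windows, from offset 69818 on, held 15.7%, 7.63% and 7.84% of its reads in sham against 36.4%, 40.6% and 32.1% in nano-TiO2 libraries. No sham library came near the lowest nano-TiO2 library, and the means were 10.4% ± 4.6 and 36.4% ± 4.3 (SD, n = 3). The exact two-sided permutation p was 0.1, the smallest possible, and 0.89 after adjustment over the 14 shares compared. In the other 13 shares, which cover the first 25%, the last 25% and the surroundings of the highest peak of an RNA, where it had one, the groups overlapped.

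In amounts, the groups were apart in the last 25% of Kcnq1ot1 and overlapped in the first 75% taken as a whole. The last 25% held 124, 93.1 and 71.6 normalized reads in sham against 492, 689 and 379 in nano-TiO2 pools, a ratio of means of 5.40. The first 75% held 668, 1127 and 842 in sham against 858, 1010 and 804 in nano-TiO2 pools, a ratio of 1.01 with overlapping groups. On the adjusted scale the ratios were 4.13, with the groups apart, and 0.83, with overlap. In stretches of 10000 nt the ratio was between 0.75 and 1.16 in each stretch that starts before offset 50000, 1.81 in the next, and 4.30 to 7.60 in each that starts at 60000 or later. The normalized groups were apart, higher in nano-TiO2, in each stretch from 50000 on and overlapped in those before it. On the adjusted scale the groups were also apart, with lower nano-TiO2 values, in the stretches from 20000 (ratio 0.65) and from 30000 (0.61).

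A fit of the last 25% against the rest of the gene, added after these shares were seen, was run over all 12528 genes with enough signal in both parts. For Kcnq1ot1 the log2 change of that ratio was 2.37 (SE 0.34), larger than in 99.9% of genes. It did not pass the threshold (unadjusted p = 3.1e-04, adjusted p = 0.068, limma), where 0.12% of genes were called, 0.0798% as relatively higher and 0.0399% as relatively lower. Without each library in turn the change stayed between 2.17 and 2.75, with adjusted p of 0.10 to 0.22. Malat1, Neat1, Tug1 and Gas5 had changes of 0.05, -0.20, -0.10 and 0.02 in the same fit, and 0 of the 5 RNAs was called. For the first 25% against the rest 0 of 12362 genes was called by limma (0%; 1396 at an unadjusted p under 0.05). The windows of Kcnq1ot1 reach 93092 nt, against a RefSeq span of 83437 nt, so part of them lies outside the RefSeq gene. At which end is not given. In RefSeq, Kcnq1ot1 overlaps Kcnq1. The strand setting of the counting is not given, so reads of the 2 genes cannot be told apart.

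**Figure D4:**
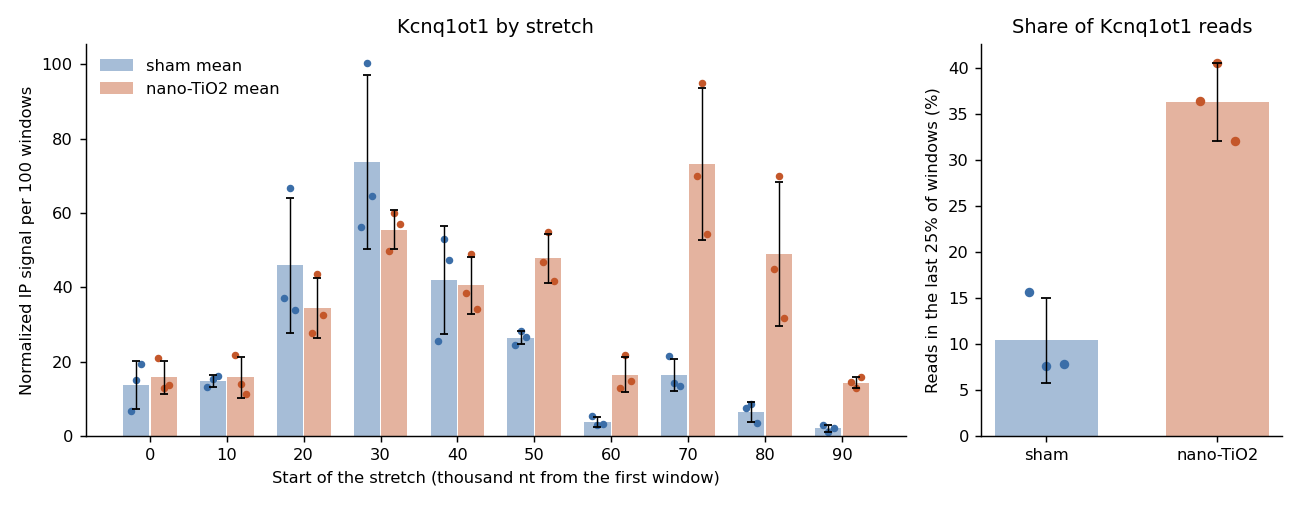
Left, normalized IP signal per 100 windows of Kcnq1ot1 in stretches of 10000 nt by their offset from the first window; right, share of its reads in the last 25% of windows. Bars are means of 3, whiskers SD and points libraries. From 50000 on every nano-TiO2 library lies above every sham library, and the share averages 36.4% against 10.4%.

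Single windows of Kcnq1ot1 were too low to be tested: none of 3723 had a mean of 10, and 1445 had no read. Counted without a test, all nano-TiO2 libraries exceeded all sham libraries in 91 windows and were below them in 39. Among the 250317 windows of all genes with a mean of at least 10, a group these windows do not belong to, 11.5% were higher without overlap and 19.7% lower. Its 1 peak, at offset 57993, had a running mean of 6.47 normalized reads per window. At that peak the libraries stood at 6.48, 3.94 and 7.30 in sham against 9.82, 5.96 and 5.32 in nano-TiO2, so the groups overlapped.

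Tug1 signal lay in 3 blocks separated by stretches with almost no reads. The blocks ran from offset 110 to 3535, from 4210 to 5860 and from 6485 to 7835, and held 56.9%, 17.6% and 24.6% of its reads. The 2 gaps between them, from 3560 and from 5885, held 15 and 5 reads in all libraries together. The windows reach 9734 nt, against a RefSeq gene span of 9030 nt, so they can take in introns. Whether the gaps match introns was not tested. All 3 blocks were higher in every nano-TiO2 library than in every sham library. The ratios of means were 3.59, 3.99 and 3.37. The first block, for example, held 163, 179 and 189 normalized reads in sham against 678, 605 and 623 in nano-TiO2 pools.

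The highest peaks of Tug1 lay at offsets 385, 710 and 6985. At 385 the running mean was 4.50, 4.38 and 4.05 normalized reads per window in sham against 10.5, 11.4 and 13.9 in nano-TiO2 libraries, a ratio of 2.76. All nano-TiO2 libraries exceeded all sham libraries in 124 of its 389 windows, and the reverse held in 0. Of tested windows of all genes 11.5% were higher and 19.7% lower without overlap, but nearly all Tug1 windows lie below that filter. Only the window at 435 reached a mean of 10, through its nano-TiO2 values, and it was not called (log2 change 1.29, adjusted p = 0.072, limma). The shares of reads in the first 25%, the last 25% and the highest peak overlapped between groups.

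Gas5 signal lay in narrow runs. Its 26 windows with a mean of at least 10 formed 12 short runs of at most 3 windows, whose centres lay 150 to 612.5 nt apart (median 237.5). The windows reach 3750 nt, near the RefSeq gene span of 3939 nt, so they can take in introns as well as exons. RefSeq places 8 snoRNA genes within Gas5, among them Snord47. Whether the runs match exons or snoRNA genes was not tested. These 26 windows are 17.3% of the gene and held 92.1%, 88.1% and 90.3% of its reads in sham against 84.7%, 81.1% and 85.5% in nano-TiO2 libraries. The groups were apart, with less of the Gas5 signal in its high windows in nano-TiO2 hearts. Over the whole series, too, reads lay on more windows in nano-TiO2 libraries (1271555, 1484331 and 1414618) than in sham libraries (1145132, 1097910 and 997523). How many other genes show such a spread was not computed, so it is not shown to be particular to Gas5.

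The 26 high windows held 1445, 1337 and 1389 normalized reads in sham against 974, 1000 and 1062 in nano-TiO2 pools, with no overlap and a ratio of 0.73. The other 124 windows held 124, 181 and 150 in sham against 176, 233 and 180 in nano-TiO2 pools, with overlap and a ratio of 1.30. On the adjusted scale the other windows stood at 118, 160 and 146 in sham against 198, 263 and 214 in nano-TiO2, which did not overlap, while the high windows did.

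Of the 26 Gas5 windows tested, 3 were called as lower, at offsets 876, 1676 and 1951, and none as higher, where 7.32% of all windows were called as lower (limma). At 1676 the values were 92.7, 95.3 and 98.7 in sham against 46.9, 53.0 and 69.3 in the nano-TiO2 libraries; its log2 change was -0.77 (SE 0.22, adjusted p = 0.031, limma). With each library left out in turn, 0 or 1 Gas5 window was called. In the within-gene test 1 of 26 windows, at offset 251, was relatively higher in nano-TiO2 hearts (1.07 relative to the gene on the log2 scale, adjusted p = 0.0098, diffSplice). Its sham mean of 8.43 was under the filter, which it passed only through the nano-TiO2 mean of 13.4, so the call is no support for a difference. The within-gene test also pools the spread over the windows of a gene, which are not independent. In the fit of single windows the same window was not called (adjusted p = 0.35, limma). It held 9.0, 5.48 and 10.8 normalized reads in sham against 15.6, 11.6 and 12.9 in nano-TiO2 libraries. This call rested on single libraries: leaving out sham replicate 2 ended it, and so did leaving out nano-TiO2 replicate 1. On the adjusted scale 0 of 26 windows was called.

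The highest Gas5 peak, at offset 3126, overlapped between groups, at 37.6, 38.3 and 31.9 in sham against 33.3, 28.0 and 29.8 in nano-TiO2 libraries. The next, at 901 and 1976, did not: at 901 the running mean was 33.8, 30.0 and 30.0 in sham against 20.5, 23.3 and 18.5 in nano-TiO2 libraries, a ratio of 0.66, and at 1976 the ratio was 0.64. The peaks of 1 RNA share its reads and are not replicates.

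**Figure D5:**
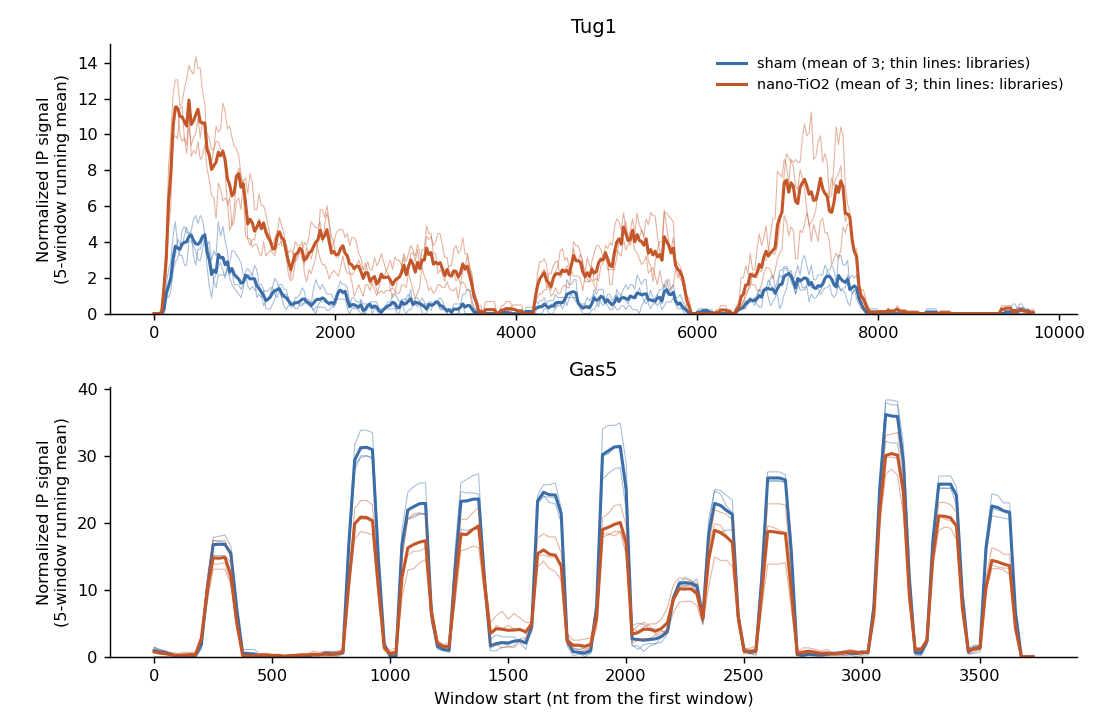
Normalized IP signal (5-window running mean) along Tug1 (top) and Gas5 (bottom) against the offset in nt from the first window; thin lines are libraries, thick lines group means of 3. In Tug1 all 3 blocks are higher in nano-TiO2, at 3.37 to 3.99 times sham; in Gas5 the 26 windows of the 12 narrow runs total 0.73 times the sham mean in nano-TiO2, and the other windows 1.30 times the sham mean.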

How the data were processed

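RNA pulled down with an anti-m6A antibody was sequenced from 6 pools of fetal hearts; input reads were not used here. The submitters' processing notes name the build GRCm39 and the tools DESeq2 1.34.0, HISAT2 2.2.1 and Salmon 1.5.2, with no role given. The windowing, strand setting and window direction are not given in the sources used here. The normalized table deposited by the authors holds IP signal per window; 100% of its values were whole multiples of 1 step per library (tolerance 0.0001), so reads were recovered. The adjusted table deposited by the authors holds whole-number scores: in 162014 of 162014 gene and library pairs these equal the normalized value divided by 1 factor and rounded.

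Gene levels were sums over windows. The test was limma 3.58.1, with a mean trend, run in R 4.3.3 on every gene or window whose mean reached 10. It was two-sided, on log2(value + 1), adjusted by Benjamini-Hochberg over all features at 0.05; folds on that scale understate low genes. Count tests on the recovered reads, edgeR 4.0.16 and DESeq2 1.42.0, called 6932 and 7316 genes, against 6676 by limma. Shares were compared by exact permutation (SciPy 1.17.1). A peak was a maximum of the 5-window running mean, at least 3 times the median window (floored at 1) and 300 nt from a higher peak. The 6 RNAs were named whatever their values, with, for Malat1 and Neat1, the gene of highest correlation; the Gas5 windows called in IP level and the Tug1 window at 435 were named after their values were seen. RNAs, lists and tests were chosen with earlier results of these data known. The choice of RNAs, though made by name, was therefore not blind to the data. Fits were tested on simulated data. RefSeq start windows matched 5 of the 6 symbols. Counts at the floor of 3 reads cover counting error only.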

Additional observations from a re-analysis of the deposited data

How the results depend on the processing

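Malat1 and Tug1 kept their rise in IP level under every setting run for genes (limma, edgeR and DESeq2 included), while the others depended on the setting. Of the 5 tested RNAs, 3 to 4 were called in each setting; Neat1 was lost with the window trend removed (adjusted p = 0.11, limma), and Gas5 was called by edgeR (0.030), by DESeq2 (0.0034) and by limma with that trend removed (-0.45, adjusted p = 0.029). Kcnq1ot1 was called with the replicate block (adjusted p = 0.029), with quantile normalization (0.048), with equal totals (0.0020) and with totals set equal leaving out the 4 most abundant genes (0.014), and it reversed to -0.88 with the window trend removed. Gas5 reversed to 0.15 with equal totals. Quantile normalization moved the median gene to -0.05 and equal totals outside the 4 genes to 0.39, from 0.13. In the adjusted level the number called ranged from 0 to 1 over single libraries left out, and Gas5 reversed to 0.016 without sham replicate 3 (range -0.14 to 0.02).

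With a window mean of at least 50, 35 windows of these RNAs were called in IP level, against 61, and 0 within genes, against 1. Leaving out 1 library gave 32 to 54 and 0 to 1. With the first or last 10% of windows in place of 25%, differences in share (percentage points, nano-TiO2 minus sham) reversed to -0.094 for the last part of Malat1, 0.78 for the first and -1.33 for the last part of Gas5. Over single libraries left out they ranged from -0.10 to 0.03 (first) and -0.34 to 0.62 (last) in Malat1, -1.05 to 0.42 at its highest peak, -12.7 to 1.20 (last) in Neat1, -7.57 to 0.32 (first) and -1.65 to 0.83 (last) in Tug1, and -0.85 to 1.69 (last) in Gas5; for the last part of Kcnq1ot1 they were 23.9 to 28.6.

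Same-numbered libraries did not deviate together (correlations of deviations -0.37, 0.18 and 0.02). The labels state no pairing, and so few correlations cannot decide whether the numbers mark pairs. Apart from Kcnq1ot1, the replicate block changed no gene call among these RNAs. With it Malat1 had 57 window calls and Gas5 2, and the fit of the last 25% of Kcnq1ot1 had an adjusted p of 0.15 (limma). Over all genes, the block moved the number called in that fit from 15 to 0. It moved the number of windows called on the adjusted scale from 8 to 125. Depth limits Neat1 (365 reads) and Miat (24 reads).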
